A study of Mus musculus with 15 samples.

Results

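Skin at day 7 of a wounding time course was compared with skin at day 5, to ask which genes differed between these neighbouring times of repair. The comparison used every library whose title gives day 5 or day 7, which came to 3 against 3, or 6 of the 15 libraries of the series. All were skin of C57BL/6 mice labelled with the stress wound, with no genotype or other treatment. The remaining 9 libraries were taken at day 0, 1 and 3, again 3 per time, and carry the same wound label, day 0 included. Per the labels, muscle and fat were cleaned from the skin, which was frozen before total RNA was extracted. The sex and age of the mice, the size of the wound, the share of a sample that was wound bed and the hour of sampling are details not given in the sources used. The labels do not tie a library to an animal, and a p-value here covers the spread among samples of 1 time, which may be technical in origin.

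At these times a skin wound is classically passing from inflammation to tissue formation. Neutrophils and monocytes enter first, keratinocytes crawl over the bed from the wound edge, vessels sprout, fibroblasts lay down matrix, and the matrix is later reworked by proteases. Skin cells also run a circadian clock. In this feedback loop ARNTL (also called BMAL1), paired with CLOCK or NPAS2, binds the E-box sequence and drives the Per and Cry genes, whose proteins repress that pair. The same pair drives Nr1d1 and Nr1d2, whose proteins repress Arntl at ROR elements, and Dbp, Tef and Hlf, whose proteins bind D-boxes.

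The values are the estimated counts deposited for each gene symbol, scaled to a common library size (CPM). The 6 libraries held 38062562 to 60450396 estimated counts each. Krt14, the keratin of basal keratinocytes, stood at 1686 to 3998 CPM and the dermal collagen Col3a1 at 9888 to 22680 CPM in these libraries, so both layers of the skin were present in each. Mitochondrial genes took 7.42% to 8.70% of the counts at day 5 and 8.09% to 9.44% at day 7. In each time, 1 library stood apart by its hair follicle content. A list of 31 hair keratins and keratin-associated proteins, which build the hair shaft, took 2.62% of counts for replicate 2 of day 5 and 3.13% for replicate 3 of day 7, against 0.124% and 0.00386% in the other day 5 libraries and 0.0673% and 0.0544% in the other day 7 libraries. Results are therefore also given without these 2 libraries, which are called the hair-rich libraries. Although the labels say that muscle and fat were cleaned off, genes of both were present in each library. Skeletal muscle genes took 0.69% and 0.43% of counts in the hair-rich libraries of day 5 and day 7, against 1.02% to 1.18% in the rest. Adipocyte genes took 0.34% and 0.25% there, against 0.38% to 0.46% in the rest. In bulk skin, fewer cells of a type and less RNA per cell cannot be told apart.

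Of the 38 gene lists compared, the circadian clock had the most members whose day 5 and day 7 libraries were separated, and the promoters of a few of its genes are shown first to tie the gene names to the regulatory sequences they are known for. The windows come from the RefSeq table of mouse GRCm38.p6, matched by symbol, and the build used by the authors was not given in the sources used here. Of 19 clock genes, 16 were in the table. The 250 bases before each start were searched on both strands for the E-box CACGTG, which 5 of the 16 genes held (Per1, Cry1, Tef, Bhlhe41 and Ciart), against 6.86% of the 27025 genes in the table. The D-box TTATGTAA was found in 1 of the 16, Per3, and in 0.98% of all genes. The ROR element TAGGTCA was found in 1, Nfil3, and in 2.55% of all genes. Ciart, a repressor of the clock, held 3 E-boxes between 116 and 44 bases before its start (chr3:95882258-95882364, minus strand). Tef held 1 E-box 127 bases before its start (chr15:81802526-81802571, plus strand), Bhlhe41 held 1 at 153 bases (chr6:145865548-145865593, minus strand), and Per3 held 2 D-boxes at 205 and 158 bases (chr4:151044796-151044890, minus strand). Each window lies upstream of its gene and is written 5′ to 3′ on the strand of the gene, with only the motif just named in capitals. Distances are counted from the first start listed for each gene in the RefSeq table, where Tef has 2. The Ciart window was cut short where its annotated gene begins, upstream of the start used for the distances. A match is a description of these letters and not a measured binding site.
Ciart: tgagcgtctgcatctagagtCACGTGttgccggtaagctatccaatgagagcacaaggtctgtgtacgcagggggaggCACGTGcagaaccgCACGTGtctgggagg
Tef: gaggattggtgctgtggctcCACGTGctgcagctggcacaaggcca
Bhlhe41: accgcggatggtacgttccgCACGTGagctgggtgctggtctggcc
Per3: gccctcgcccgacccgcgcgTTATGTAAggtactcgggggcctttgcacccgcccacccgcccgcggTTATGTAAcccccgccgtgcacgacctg

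Across all genes the test between the 2 times made 1 call. Of 17136 genes tested by edgeR with the quasi-likelihood F test and Benjamini-Hochberg adjustment, 1 (0.00584%) had an adjusted p under 0.05, and it was lower at day 7. Without the hair-rich libraries 0 of 17304 genes (0%) were called, while 1981 had an unadjusted p under 0.05. With all libraries 1573 genes (9.18%) had an unadjusted p under 0.05, of which 815 were higher at day 7 (4.76% of the genes tested) and 758 lower (4.42%). DESeq2 called 145 of 16980 genes (0.854%), 86 higher and 59 lower. All 3 day 7 libraries lay above all 3 day 5 libraries for 974 genes (5.68%) and below them for 936 genes (5.46%). The median log2 fold change of all genes was 0.0028. The scaling itself centres these values near 0, so this median cannot tell whether RNA levels shifted in general. These shares, taken with all libraries, are the background against which the counts for each gene group are read. They do not apply to counts without the hair-rich libraries. Those counts are set beside the 1981 of 17304 genes in either direction, as the split by direction is not given here. With 1 gene called, "higher" and "lower" are used below of measured values that did not pass the adjusted test.

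Genes of red blood cells, whose products carry oxygen or make heme, were lower at day 7 in the libraries poor in hair, and did not pass. Of 7 tested members of the list, all 7 had a lower mean at day 7 without the hair-rich libraries and 6 with them, the exception being Slc4a1, whose values followed the hair content (5.91 CPM in day 5 replicate 2 and 7.62 CPM in day 7 replicate 3, at most 0.802 CPM in the other 4). The median log2 fold change of the list was -1.12, -1.78 without the hair-rich libraries and -0.52 without day 5 replicate 1. The beta globin gene Hbb-bs stood at 374, 134 and 137 CPM at day 5 and at 71.3, 76.3 and 148 CPM at day 7, so that day 5 replicate 1 was the highest library and day 7 replicate 3, which is hair rich, lay above the other day 5 libraries. Alas2, the first enzyme of heme synthesis in erythroid cells, was also highest in day 5 replicate 1 and stood at 12.1, 5.28 and 4.96 CPM at day 5 and at 2.17, 1.31 and 4.47 CPM at day 7. Every day 7 library was below every day 5 library for Alas2, with a log2 difference of -1.48 ± 0.56 (edgeR adjusted p = 0.466). The globin genes are near-identical copies (Hba-a1 with Hba-a2, Hbb-bs with Hbb-bt), so their separate values are uncertain. Hbb-bs and Slc4a1 were chosen for mention after their values were seen.

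In the circadian clock list the activators Arntl and Npas2 were higher at day 7, and most repressors and output factors were lower. Of 19 members, 11 had every day 7 library below every day 5 library and 2 had every day 7 library above, against 5.46% and 5.68% of all genes. Of the 19, 11 were lower and 2 higher at an unadjusted p under 0.05 (background 4.42% and 4.76%), and edgeR called 0 over all genes. DESeq2 called 6, with Arntl and Npas2 higher and Dbp, Tef, Per2 and Per3 lower at day 7. The median log2 fold change of the list was -0.50, and -0.49 without the hair-rich libraries. In that smaller fit 9 members were lower and 4 higher at an unadjusted p under 0.05 (all genes, either direction, 1981 of 17304). The hour of sampling is not given, so the day of the wounding course and the hour of the day cannot be told apart for these genes.

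ARNTL is the activator that the loop cannot replace. Arntl stood at 18.0, 19.3 and 14.0 CPM in the day 5 libraries and at 34.7, 29.5 and 32.0 CPM in the day 7 libraries. The 2 sets of libraries did not overlap, and the log2 difference was 0.91 ± 0.12 (1.88-fold, edgeR adjusted p = 0.0568, and 1.00 ± 0.14 without the hair-rich libraries, edgeR adjusted p = 0.0766). Npas2, which can take the place of CLOCK, stood at 4.73, 3.06 and 2.82 CPM at day 5 and at 10.1, 11.8 and 6.42 CPM at day 7, again with no overlap and with the hair-rich library the lowest at day 7. Its log2 difference was 1.41 ± 0.27 (2.66-fold, edgeR adjusted p = 0.2804). Clock itself stood at 50.1 to 70.2 CPM at day 5 and 55.7 to 79.1 CPM at day 7, and its libraries overlapped (log2 difference 0.21 ± 0.13).

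The repressors of the period and cryptochrome families were lower, apart from Per1 and Cry1, as were Ciart, Bhlhe40 and Bhlhe41. Per2 stood at 9.12, 6.83 and 19.7 CPM at day 5 and at 4.48, 3.97 and 3.27 CPM at day 7, a log2 difference of -1.61 ± 0.36 (edgeR adjusted p = 0.2804). Per3 stood at 24.1, 15.1 and 28.3 CPM at day 5 and at 10.3, 9.79 and 4.78 CPM at day 7, a log2 difference of -1.44 ± 0.29 (edgeR adjusted p = 0.2804). In both genes the day 7 libraries lay below the day 5 libraries without overlap, and day 7 replicate 3 was the lowest library of all. Per1, which glucocorticoids can also induce, went the other way, at 24.6, 24.3 and 46.2 CPM at day 5 and 54.8, 49.8 and 41.9 CPM at day 7, and its libraries overlapped (log2 difference 0.62 ± 0.36, edgeR adjusted p = 0.656). Cry2 had a log2 difference of -0.68 ± 0.21 without overlap, while Cry1 overlapped at 0.26 ± 0.20. Ciart, whose 3 E-boxes are printed above, stood at 3.62, 3.95 and 7.72 CPM at day 5 and at 2.42, 3.51 and 2.80 CPM at day 7, separated by a narrow margin (log2 difference -0.81 ± 0.35). Bhlhe40 and Bhlhe41, repressors that bind E-boxes, had log2 differences of -0.48 ± 0.15 and -0.50 ± 0.19, both without overlap.

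Among the nuclear receptors that feed back on Arntl, the repressors were lower at day 7. The repressor Nr1d1 stood at 69.0, 58.6 and 95.5 CPM at day 5 and at 36.8, 42.5 and 15.2 CPM at day 7, a log2 difference of -1.24 ± 0.42 (edgeR adjusted p = 0.436). Its relative Nr1d2 differed by -0.93 ± 0.32, with the nearest libraries at 84.1 CPM at day 5 and 82.3 CPM at day 7. The activator Rora overlapped between the times (log2 difference -0.34 ± 0.25). Among the output factors that bind D-boxes, Dbp stood at 52.9, 38.5 and 73.2 CPM at day 5 and at 13.7, 19.4 and 4.06 CPM at day 7. This was the widest difference of the list, 4.43-fold lower at day 7 or -2.15 ± 0.48 on the log2 scale (edgeR adjusted p = 0.2804, and -1.93 ± 0.40 without the hair-rich libraries). Tef stood at 121, 91.7 and 154 CPM at day 5 and at 65.8, 63.0 and 30.3 CPM at day 7, a log2 difference of -1.21 ± 0.25 (edgeR adjusted p = 0.2804, and 0.0584 at -1.10 ± 0.13 without the hair-rich libraries). Hlf differed by -1.08 ± 0.30, and Nfil3, which represses at D-boxes, overlapped at 0.68 ± 0.35.

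**Figure D1:**
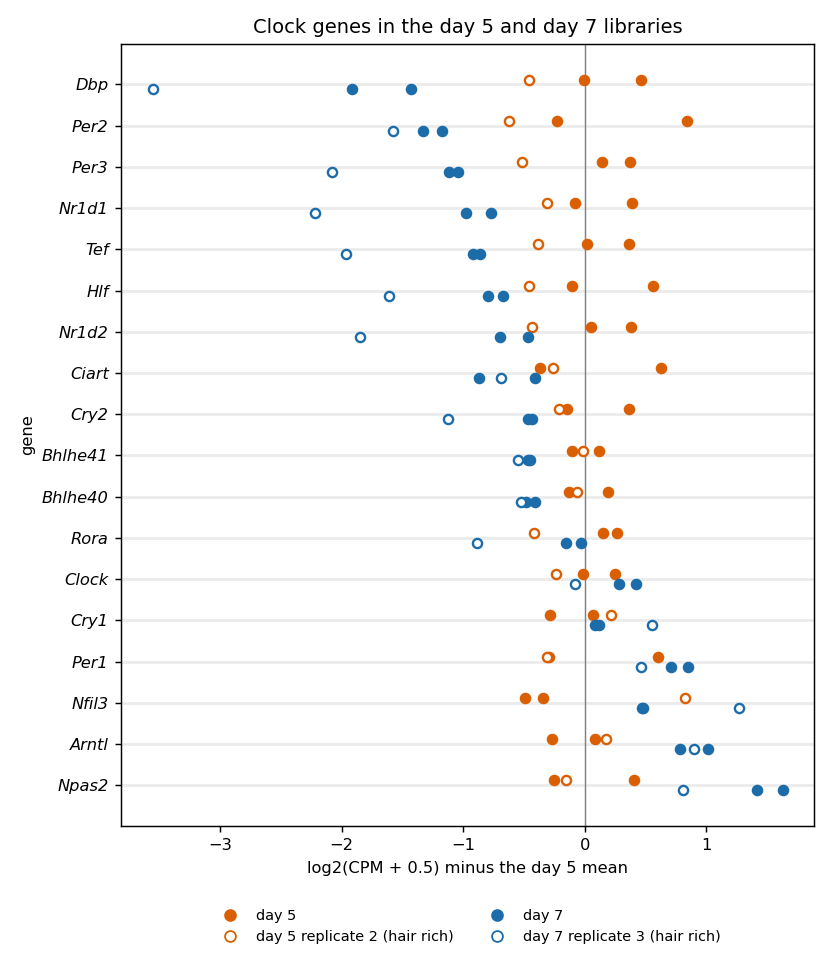
Level of 18 clock genes in each day 5 and day 7 library, as log2(CPM + 0.5) minus the mean of the day 5 libraries; each point is 1 library and open points are the hair-rich libraries. For 11 genes from Dbp to Bhlhe40 every blue day 7 point lies left of every orange day 5 point, and for Arntl and Npas2 every blue point lies right of them.

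Within each time the libraries had a like order across these genes. Of the 11 genes with lower day 7 libraries, day 5 replicate 3 was the highest day 5 library in 10 and the hair-rich day 5 replicate 2 the lowest in 8. The hair-rich day 7 replicate 3 was the lowest day 7 library in 10 of the 11. The shares of all genes with these orders are not given here. The counts are therefore descriptions, and the order was not shown to be particular to clock genes. The sign of the difference was the same for all 19 members without both hair-rich libraries, and for 18 of 19 without day 5 replicate 3 or without day 7 replicate 3.

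The other times show where the 2 days stood in the whole course. Arntl lay between 32.0 and 39.9 CPM in the day 0 libraries and between 17.4 and 20.3 CPM at day 1 and day 3, and Npas2 likewise averaged 9.97 ± 3 CPM (SD, n = 3) at day 0 against 4.38 ± 0.281 at day 1 and 4.23 ± 0.208 at day 3. For both genes the day 7 libraries overlapped the day 0 libraries and the day 5 libraries lay below them. Of the 11 genes lower at day 7, 9 had every day 5 library above every day 0 library, and 9 overlapped between day 7 and day 0. The exceptions at day 7 were Cry2 and Tef, which lay below day 0 in every library. Between day 5 and day 3, 10 of the 11 overlapped. The shares of all genes that overlapped or were separated in these other contrasts are not given here, so these counts are descriptions only. Dbp averaged 16.3, 29.96, 44.5, 54.9 and 12.4 CPM at day 0, 1, 3, 5 and 7. The contrasts of day 5 with day 3 and of day 7 with day 0 share libraries with the main one, and the log2 differences of Dbp there were 0.30 and -0.39 (edgeR adjusted p = 0.809 and 0.598).

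**Figure D2:**
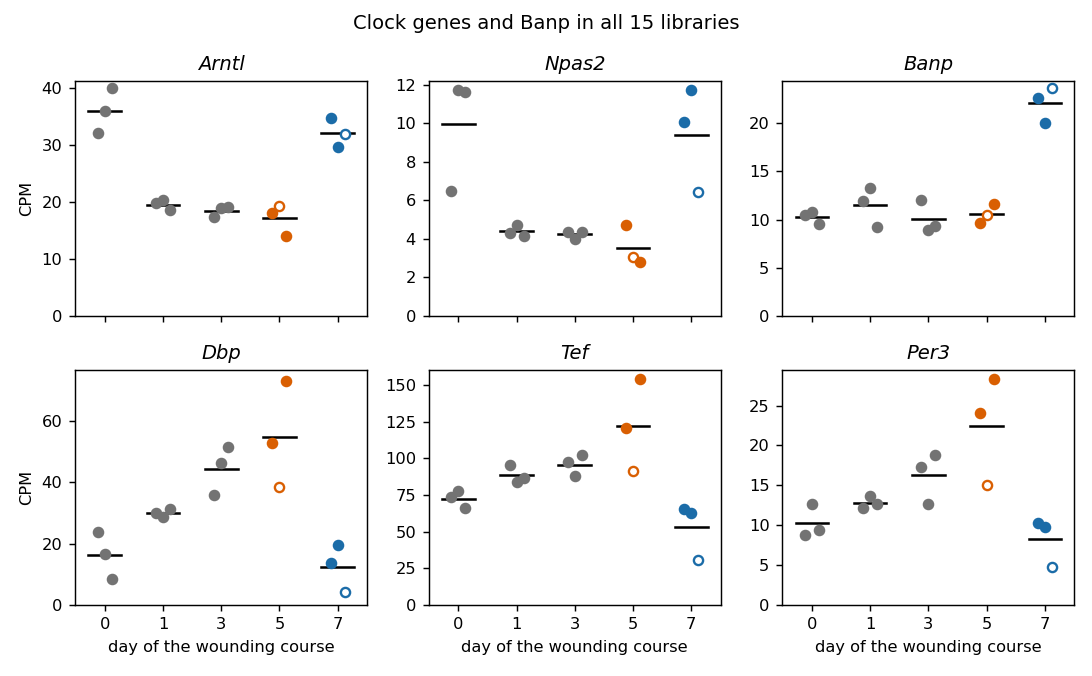
CPM of 5 clock genes and Banp in all 15 libraries by day of the wounding course; each point is 1 library, lines are means and open points are the hair-rich libraries. Arntl and Npas2 are high at day 0 and day 7 and low between, Dbp, Tef and Per3 climb to day 5 and are low at day 7, and Banp is at 20.1 CPM or above at day 7 alone.

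A rule that took the genes of smallest p with at least a 2-fold difference, a mean of at least 5 CPM and no overlap between libraries named 9 genes higher and 10 lower at day 7, none of them called by edgeR. The first was Banp, a DNA-binding protein of the cell nucleus. It stood at 9.64, 10.5 and 11.6 CPM in the day 5 libraries and at 22.7, 20.1 and 23.7 CPM in the day 7 libraries. The day 0, 1 and 3 libraries lay with those of day 5, so that Banp separated the day 7 libraries from all 12 others. Its log2 difference was 1.06 ± 0.15 (2.09-fold, edgeR adjusted p = 0.0651, DESeq2 adjusted p = 1.66e-07), and 1.01 ± 0.19 without the hair-rich libraries (edgeR adjusted p = 0.239). Of the 9 higher genes, 4 (Banp, Mmp12, Atp6v0d2 and Prss35) also had every day 7 library above every day 0 library. The share of all genes separated in this way from day 0 is not given here.

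Among the higher genes were a protease and a pump subunit known from macrophages and osteoclasts. Mmp12, the macrophage elastase, stood at 35.0, 37.9 and 31.7 CPM at day 5 and at 222, 286 and 102 CPM at day 7. The day 7 libraries were all above the day 5 libraries, the hair-rich one least, and the log2 difference was 2.54 ± 0.57 (5.83-fold, edgeR adjusted p = 0.2804, and 2.93 ± 0.72 without the hair-rich libraries). Mmp12 averaged 34.2, 12.6 and 37.9 CPM at day 0, 1 and 3. Atp6v0d2, a subunit of the proton pump of lysosomes, stood at 8.38, 11.7 and 6.00 CPM at day 5 and at 25.2, 27.2 and 16.9 CPM at day 7 (log2 difference 1.41 ± 0.36, edgeR adjusted p = 0.329). Adgre1, a general surface marker of macrophages, overlapped between the times, at 99.5 to 192 CPM at day 5 and 101 to 163 CPM at day 7.

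The serine protease-like gene Prss35 stood at 63.6, 28.1 and 27.0 CPM at day 5 and at 161, 157 and 77.1 CPM at day 7, after averages of 7.32, 4.45 and 6.32 CPM at day 0, 1 and 3. Its log2 difference was 1.73 ± 0.65 between day 7 and day 5 (edgeR adjusted p = 0.465), and Prss35 rose by 4.17 between day 0 and day 7 (edgeR adjusted p = 0.0108). The transcription factor Cebpd, the matrix protein Spon2 and the G protein regulator Rgs1 had log2 differences of 1.13 ± 0.36, 1.03 ± 0.33 and 1.13 ± 0.57. In each of these 3 the hair-rich day 7 replicate 3 lay nearest to day 5, as in Cebpd, at 27.9, 31.6 and 41.3 CPM at day 5 and 78.2, 96.5 and 45.5 CPM at day 7.

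The lower genes named by this rule included 4 of the clock (Per2, Per3, Dbp and Tef) and Prg4, Slfn1, Sele and Oas3. Prg4, the lubricating glycoprotein of joint fluid that is also made by fibroblasts, stood at 71.8, 40.3 and 92.4 CPM at day 5 and at 9.11, 5.98 and 23.9 CPM at day 7. Its log2 difference was -2.39 ± 0.66 (edgeR adjusted p = 0.354, and -3.44 ± 0.76 without the hair-rich libraries). Prg4 averaged 415 CPM at day 1 and 159 CPM at day 3, against 56.9 CPM at day 0. Slfn1, a Schlafen gene that restrains T cell growth, stood at 19.9, 12.8 and 16.9 CPM at day 5 and at 8.77, 6.55 and 9.11 CPM at day 7 (log2 difference -1.02 ± 0.24, edgeR adjusted p = 0.283), and Slfn1 fell by 2.28 from day 0 to day 7 (edgeR adjusted p = 0.00243). Sele and Oas3 are described with their groups.

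The values of 2 lower genes are uncertain. Pgam1-ps2 is a pseudogene of the glycolytic enzyme gene Pgam1, with which it can share reads, and had 479, 581 and 137 estimated counts at day 5 and 43, 0 and 0 at day 7. Erdr1 lies in a multicopy region near the end of the sex chromosomes, and had log2 differences of -2.17 ± 0.56 with all libraries and -1.41 ± 0.63 without the hair-rich libraries.

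**Figure D3:**
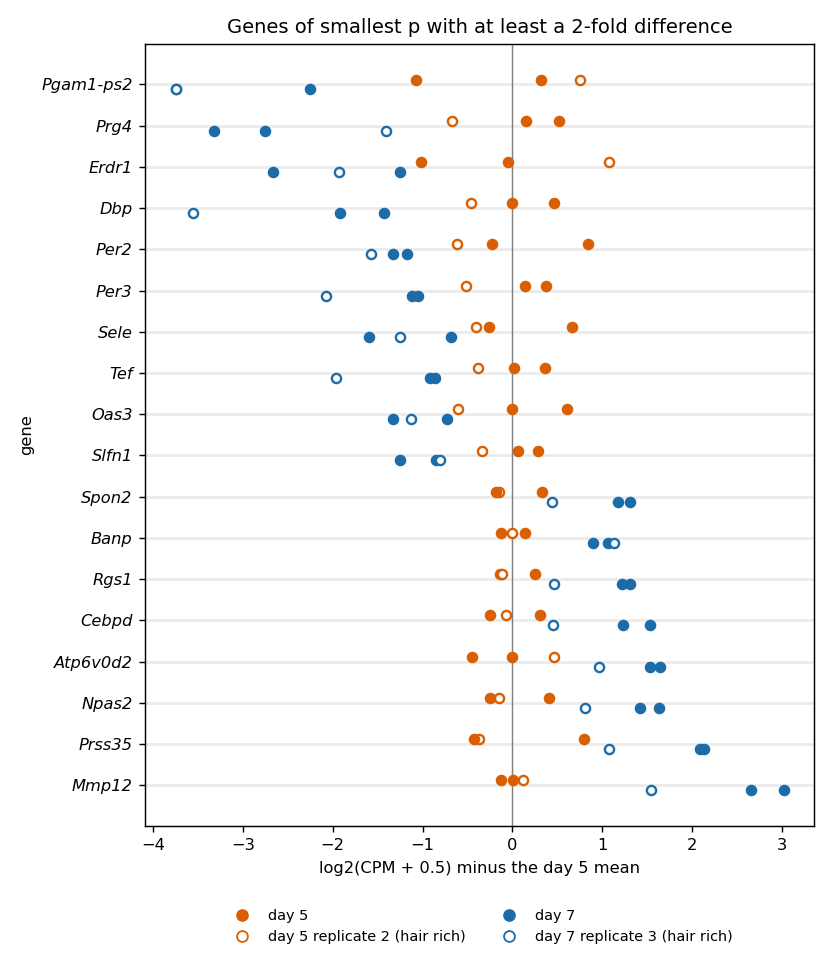
Level of 8 genes named as higher and 10 named as lower at day 7, as log2(CPM + 0.5) minus the mean of the day 5 libraries; each point is 1 library and open points are the hair-rich libraries. The naming rule required that for each of the 18 genes the blue day 7 points lie on 1 side of the orange day 5 points. In Mmp12, Prss35, Cebpd and Spon2 the open day 7 point is the one nearest to day 5.

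Chaperones of the heat shock and unfolded protein responses, which refold damaged or newly made proteins, were mostly higher at day 7. Of 33 members, 29 had a positive log2 fold change, 12 were higher and 0 lower at an unadjusted p under 0.05 (background 4.76% and 4.42%), and edgeR called 0 over all genes. All day 7 libraries lay above all day 5 libraries in 6 (background 5.68%). The median was 0.26, and 0.20 without the hair-rich libraries. In that smaller fit 9 were higher at an unadjusted p under 0.05 (all genes, either direction, 1981 of 17304). Dnaja1, a partner of HSP70, stood at 178, 223 and 197 CPM at day 5 and at 263, 367 and 378 CPM at day 7 (log2 difference 0.75 ± 0.17, edgeR adjusted p = 0.2804, DESeq2 adjusted p = 0.00946). Hsph1, of the HSP110 family, stood at 33.1, 33.5 and 33.6 CPM at day 5 and at 50.9, 86.5 and 57.2 CPM at day 7 (log2 difference 0.96 ± 0.22, edgeR adjusted p = 0.283). The day 5 libraries of Hsph1 were almost equal and each day 7 library was above them.

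Hspa1a and Hspa1b, near-identical HSP70 genes whose separate values are uncertain, had log2 differences of 0.90 ± 0.32 and 0.59 ± 0.21. Day 7 replicate 2 was the highest in both, and the libraries of Hspa1a overlapped between the times. Hsp90aa1 and Dnajb1 differed by 0.68 ± 0.19 and 0.39 ± 0.12, and the libraries of both overlapped. These last 4 were chosen after their values were seen. The heat shock element in the short form GAANNTTC lay in the 250 bases before the start of Dnaja1, Hspa1a and Hspa1b, 3 of the 5 of these 6 genes that are in the RefSeq table, and of 7.73% of all genes. Between day 0 and day 7 Dnaja1, Hsph1 and Hsp90aa1 rose by 0.93, 1.22 and 1.09 on the log2 scale (edgeR adjusted p = 0.0121, 0.0115 and 0.0101).

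Interferon response genes, the antiviral program that type I interferons switch on, were lower at day 7 in the mean of each of the 37 members. Of these, 15 were lower and 0 higher at an unadjusted p under 0.05 (background 4.42%), edgeR called 0, and in 6 all day 7 libraries lay below all day 5 libraries (background 5.46%). The median was -0.50. Without the hair-rich libraries it was -0.74, and 27 of 37 were lower at an unadjusted p under 0.05 (all genes, either direction, 1981 of 17304). Oas3, which senses double-stranded RNA, stood at 22.3, 9.40 and 14.5 CPM at day 5 and at 8.602, 5.47 and 6.38 CPM at day 7 (log2 difference -1.18 ± 0.32, edgeR adjusted p = 0.353, DESeq2 adjusted p = 0.0368). Ifi27l2a stood at 125, 96.7 and 124 CPM at day 5 and at 83.9, 60.8 and 65.2 CPM at day 7 (log2 difference -0.72 ± 0.24, edgeR adjusted p = 0.432). In both genes the hair-rich day 5 replicate 2 was the lowest day 5 library.

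Irf7, the transcription factor that amplifies the interferon response, and Ifit3 showed how that library closes the gap between the times. Irf7 stood at 122, 65.2 and 104 CPM at day 5 and at 65.2, 41.8 and 60.5 CPM at day 7, so that day 5 replicate 2 met day 7 replicate 1. The log2 difference of Irf7 was -0.79 ± 0.31, and -1.07 ± 0.37 without the hair-rich libraries. For Ifit3 it was -0.89 ± 0.32 and -1.13 ± 0.34. Both were chosen after their values were seen. The averages of these genes were already lower at day 5 than at day 0, and between day 0 and day 7 Oas3 fell by 2.33, Ifi27l2a by 2.01 and Irf7 by 1.89 on the log2 scale (edgeR adjusted p = 0.00627, 0.00446 and 0.0101).

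**Figure D4:**
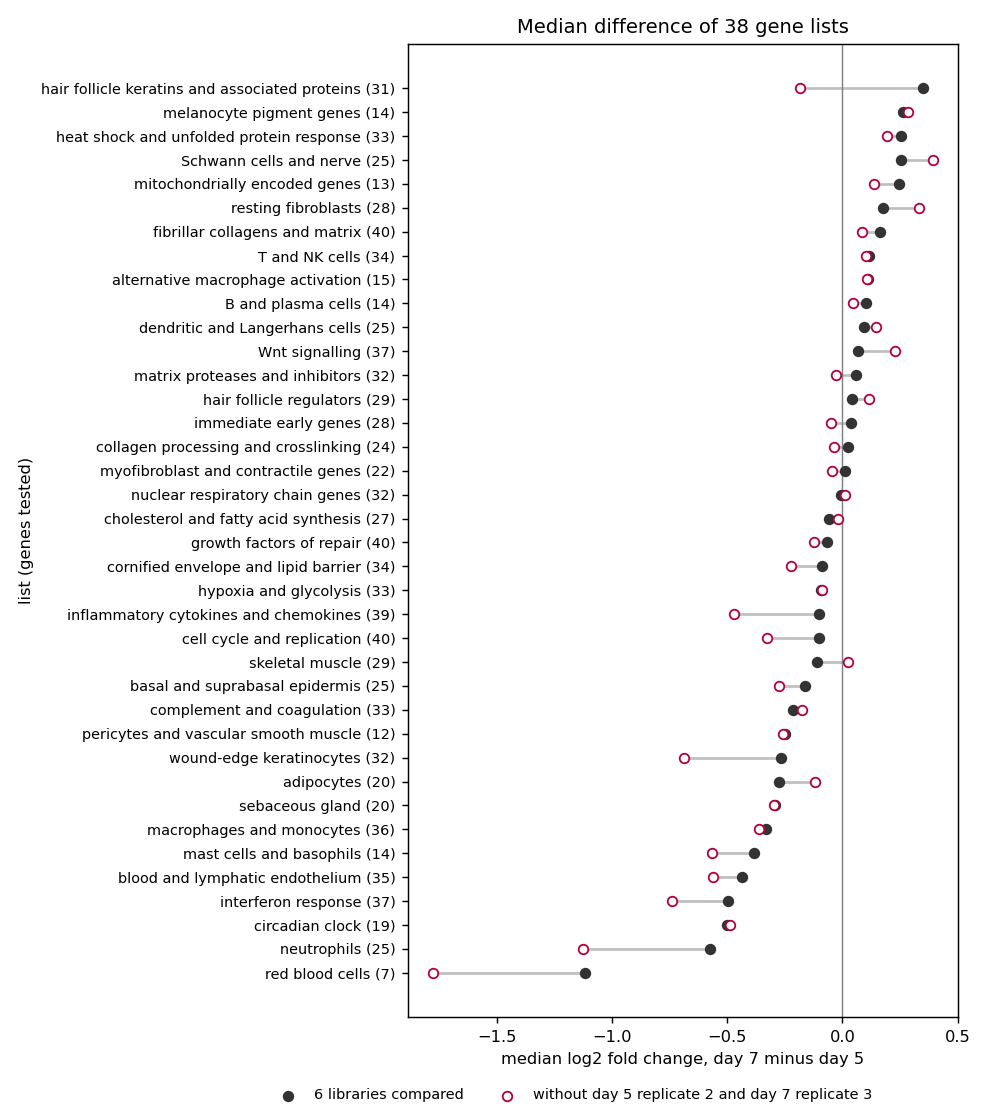
Median log2 fold change, day 7 minus day 5, of 38 gene lists, with the number of genes tested in brackets; filled points use all libraries and open points leave out the hair-rich libraries. Among the filled points the red blood cell, neutrophil, clock and interferon lists lie furthest to the left, among the open points the red blood cell, neutrophil, interferon and wound-edge keratinocyte lists do, and the hair keratin list moves from 0.35 to -0.18.

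Neutrophil genes depended on which libraries were compared. Of 25 members tested, 2 were lower and 0 higher at an unadjusted p under 0.05 (background 4.42%), and the median was -0.57. Without the hair-rich libraries the median was -1.13, and 6 of 26 members were lower at that p (all genes, either direction, 1981 of 17304). Csf3r, the receptor for granulocyte colony-stimulating factor, stood at 27.7, 29.1 and 26.02 CPM at day 5 and at 13.5, 11.4 and 18.6 CPM at day 7. All 3 day 7 libraries were below day 5 (log2 difference -0.93 ± 0.25, edgeR adjusted p = 0.349, DESeq2 adjusted p = 0.0447). S100a8, a calcium-binding protein abundant in neutrophils and also made by stressed keratinocytes, stood at 143, 38.6 and 64.4 CPM at day 5 and at 11.7, 14.2 and 79.5 CPM at day 7. The hair-rich day 7 replicate 3 thus lay among the day 5 libraries, and the log2 difference was -1.22 ± 0.71 with all libraries and -3.005 ± 0.58 without the hair-rich libraries (edgeR adjusted p = 0.658 and 0.294). Without day 5 replicate 1 the median of the list was -0.12.

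Cytokines and chemokines showed a like dependence on single libraries. Of 39 tested, 4 were lower and 0 higher at an unadjusted p under 0.05 (background 4.42%), with a median of -0.10, or -0.47 without the hair-rich libraries. Ccl8, a monocyte attractant, stood at 410, 294 and 535 CPM at day 5 and at 246, 231 and 198 CPM at day 7 without overlap (log2 difference -0.88 ± 0.28, edgeR adjusted p = 0.421). Tslp, an epithelial cytokine that acts on dendritic cells, stood at 6.79, 3.04 and 5.65 CPM at day 5 and at 2.54, 2.07 and 2.01 CPM at day 7 (log2 difference -1.23 ± 0.41, edgeR adjusted p = 0.431). The classic early cytokine Il1b and the neutrophil attractant Cxcl2 were high in 1 day 5 library, replicate 1, at 60.8 and 47.1 CPM, and at most 17.5 and 6.65 CPM in the other 5. The log2 difference of Cxcl2 was -2.20 ± 1.25 and turned to 0.57 without that library.

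Macrophage and monocyte genes were lower in 27 of 36 members, with 4 lower and 0 higher at an unadjusted p under 0.05 (background 4.42%) and a median of -0.33 (-0.36 without the hair-rich libraries). Cbr2, an enzyme marking resident macrophages, stood at 114, 99.3 and 147 CPM at day 5 and at 73.4, 71.3 and 56.1 CPM at day 7 (log2 difference -0.84 ± 0.18, edgeR adjusted p = 0.2804, DESeq2 adjusted p = 0.00540). The scavenger receptor Cd163, another marker of resident cells, stood at 115, 63.1 and 226 CPM at day 5 and at 67.3, 55.9 and 27.3 CPM at day 7, with an overlap of 1 library (log2 difference -1.43 ± 0.43). Cbr2 and Cd163 fell by 1.56 and 1.72 on the log2 scale from day 0 to day 7 (edgeR adjusted p = 0.00439 and 0.0352). Arg1, an enzyme of repair macrophages, overlapped, at 51.1 to 97.8 CPM at day 5 and 28.8 to 106 CPM at day 7, with the hair-rich day 7 library the highest of all (log2 difference -0.33 ± 0.47, and -1.24 ± 0.45 without the hair-rich libraries).

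Endothelial genes of blood and lymph vessels were lower in 29 of 35 members at day 7. At an unadjusted p under 0.05, 12 were lower and 1 higher (background 4.42% and 4.76%), edgeR called 0, and in 3 all day 7 libraries lay below day 5 (background 5.46%). The median was -0.44, and -0.56 without the hair-rich libraries. In that smaller fit 20 were lower at that p (all genes, either direction, 1981 of 17304). Sele, the adhesion molecule E-selectin of activated endothelium, stood at 4.73, 4.23 and 9.47 CPM at day 5 and at 3.41, 1.58 and 2.15 CPM at day 7 (log2 difference -1.36 ± 0.35, edgeR adjusted p = 0.329, DESeq2 adjusted p = 0.0222). Sox17, a transcription factor of arterial endothelium, stood at 11.6, 9.59 and 16.4 CPM at day 5 and at 9.51, 7.38 and 6.32 CPM at day 7, barely separated (log2 difference -0.69 ± 0.24). The general endothelial marker Pecam1 stood at 167, 96.4 and 190 CPM at day 5 and at 117, 92.7 and 92.1 CPM at day 7. For Pecam1 it was again the hair-rich day 5 library that overlapped with day 7, and the log2 difference went from -0.59 ± 0.21 to -0.77 ± 0.16 without the hair-rich libraries.

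Notch3, a receptor of pericytes that is also present in epidermis, stood at 79.1, 75.5 and 77.4 CPM at day 5 and at 65.4, 56.2 and 55.0 CPM at day 7 without overlap (log2 difference -0.39 ± 0.10, edgeR adjusted p = 0.346, DESeq2 adjusted p = 0.0417). The basement membrane collagen Col4a2 overlapped at a log2 difference of -0.44 ± 0.19. Acta2, the smooth muscle actin of vessel walls and myofibroblasts, overlapped at -0.55 ± 0.28, and differed by -0.98 ± 0.27 without the hair-rich libraries.

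Keratinocyte genes of the wound edge were lower in 25 of 32 members, with 0 at an unadjusted p under 0.05 in either direction and 5 with all day 7 libraries below day 5 (background 5.46%). The median was -0.27, and -0.69 without the hair-rich libraries. Krt6a and Krt16, keratins that skin switches on after injury, were separated between the times, Krt6a at 1333, 1007 and 1204 CPM at day 5 and at 513, 231 and 843 CPM at day 7. Their log2 differences were -1.16 ± 0.75 and -1.14 ± 0.84 (edgeR adjusted p = 0.701 and 0.7502). Krt6a has a near-identical copy, Krt6b, so its level is uncertain. Krt14 stood at 3653, 2712 and 3998 CPM at day 5 and at 1686, 1835 and 2313 CPM at day 7, all 3 below (log2 difference -0.83 ± 0.37, edgeR adjusted p = 0.532). Krt14 was 1 of 5 of the 25 basal and suprabasal epidermis genes with all day 7 libraries below day 5 (background 5.46%). That list had a median of -0.16 (-0.27 without the hair-rich libraries). Mki67, a marker of dividing cells, overlapped, and its 2 highest values were in the hair-rich libraries, at 155 CPM at day 5 and 158 CPM at day 7, against 65.5 to 110 CPM in the other 4.

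Fibrillar collagens and other matrix genes had a median near 0. Of 40 members 1 was higher and 1 lower at an unadjusted p under 0.05 (background 4.76% and 4.42%). The median was 0.16 (0.08 without the hair-rich libraries). Col3a1 stood at 17290, 9888 and 18270 CPM at day 5 and at 22680, 20970 and 11210 CPM at day 7, lowest in each time in the hair-rich library (log2 difference 0.27 ± 0.34). Postn, a matrix protein of healing dermis, stood at 3398, 1315 and 2083 CPM at day 5 and at 3605, 3680 and 3313 CPM at day 7. Its day 7 libraries were close together and overlapped 1 day 5 library (log2 difference 0.64 ± 0.33, edgeR adjusted p = 0.589), and Postn rose by 1.83 between day 0 and day 7 (edgeR adjusted p = 0.0126). Fbn2, a fibrillin of growing tissue, differed by 0.96 ± 0.36 between day 5 and day 7, with overlap.

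Among 40 growth factors of repair 1 was higher and 3 lower at an unadjusted p under 0.05 (background 4.76% and 4.42%). Ptn, the heparin-binding factor pleiotrophin, stood at 52.96, 55.5 and 54.4 CPM at day 5 and at 84.4, 105 and 79.0 CPM at day 7 (log2 difference 0.72 ± 0.23, edgeR adjusted p = 0.421). Fgf7, which fibroblasts send to keratinocytes, stood at 25.6, 25.6 and 24.2 CPM at day 5 and at 21.0, 17.9 and 20.2 CPM at day 7 (log2 difference -0.35 ± 0.10, edgeR adjusted p = 0.364). In both genes the day 5 libraries were close together and the day 7 libraries lay to 1 side. The vessel growth factor Vegfa overlapped at 0.21 ± 0.11. Of the proteases other than Mmp12, Adamts4 differed by 0.56 ± 0.23 without overlap.

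Schwann cell genes, which mark the glia that wrap skin nerves in myelin, were mixed. Of 25 members, 7 were higher and 1 lower at an unadjusted p under 0.05 (background 4.76% and 4.42%), and the median was 0.25. Without the hair-rich libraries the median was 0.39, and 10 were higher and 0 lower at that p (all genes, either direction, 1981 of 17304). Cldn19, a junction protein of Schwann cells, stood at 1.06, 1.23 and 1.65 CPM at day 5 and at 5.93, 3.76 and 1.70 CPM at day 7 (log2 difference 1.53 ± 0.35, edgeR adjusted p = 0.2804, DESeq2 adjusted p = 0.00688). Mbp, a protein of compact myelin, stood at 37.4, 43.9 and 59.3 CPM at day 5 and at 138, 57.8 and 48.9 CPM at day 7, with overlap (log2 difference 0.80 ± 0.34, edgeR adjusted p = 0.512). Day 7 replicate 1 was the highest library of the 6 for both genes, and day 7 replicate 3, the hair-rich one, the lowest day 7 library. Erbb3, a neuregulin receptor that keratinocytes also carry, was lower at day 7 without overlap (log2 difference -0.34 ± 0.11). At day 0 Mbp averaged 172 CPM, above its day 5 and day 7 averages.

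**Figure D5:**
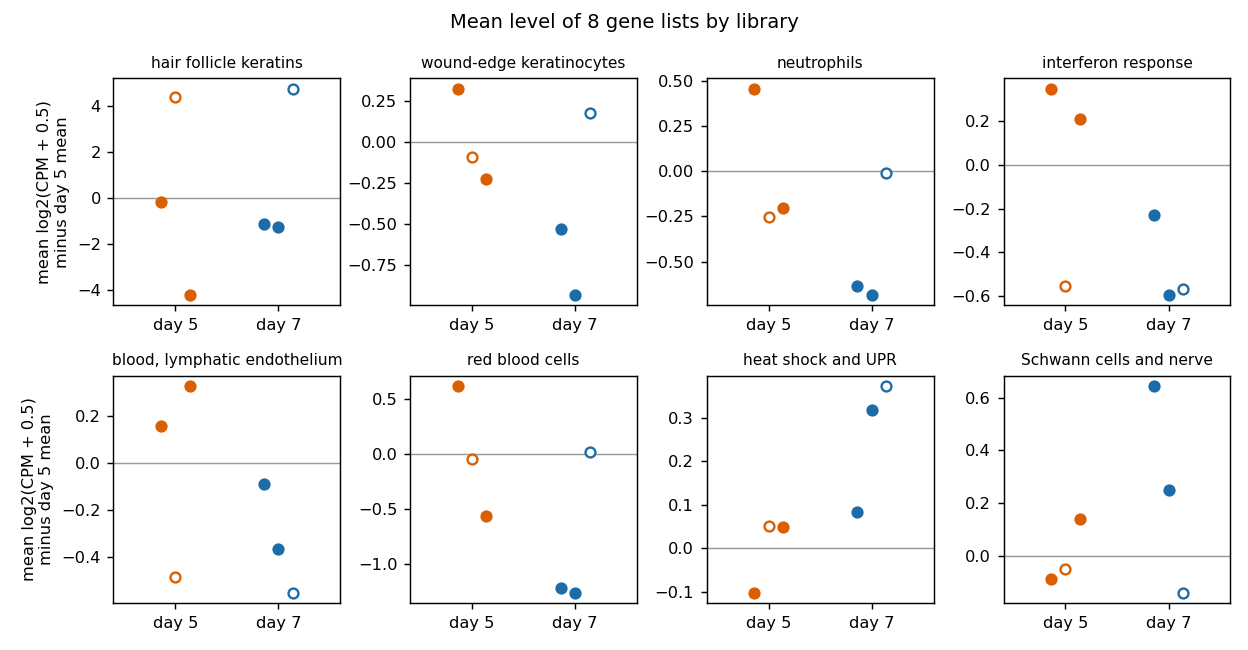
Mean level of 8 gene lists in each library, as the mean of log2(CPM + 0.5) minus the mean of the day 5 libraries; orange points are day 5, blue points day 7, and open points the hair-rich libraries. The chaperone list has every day 7 library above every day 5 library, while in the neutrophil, red blood cell and wound-edge lists the open day 7 point lies among the day 5 points.

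The hair-rich libraries were chosen by the level of the hair keratin list itself, and with 1 such library at each time the list gives no comparison of the times. Of 31 hair keratins and associated proteins, 0 were higher or lower at an unadjusted p under 0.05 by edgeR, and DESeq2 called 0. The median was 0.35, -0.18 without the hair-rich libraries, 4.51 without day 5 replicate 2 alone and -4.28 without day 7 replicate 3 alone. Krtap7-1, a keratin-associated protein chosen after its values were seen, stood at 40.2, 1518 and 0.984 CPM at day 5 and at 18.9, 14.5 and 2711 CPM at day 7. Its fitted log2 difference of 0.82 ± 2.40 turned to -0.30 without the hair-rich libraries. Pigment genes of melanocytes, which feed the hair shaft, were also highest in these libraries, with a summed level of 838 and 955 CPM in the hair-rich libraries of day 5 and day 7 and of 332 to 424 CPM in the other 4. The follicle stem cell marker Lgr5 stood at 19.9 to 29.8 CPM at day 5 and 31.4 to 36.6 CPM at day 7 (log2 difference 0.37 ± 0.36, edgeR adjusted p = 0.842).

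With all libraries, several other groups had medians near that of all genes. Cell cycle genes had a median of -0.10, with 30 of 40 lower and 10 higher, and 0 at an unadjusted p under 0.05 by edgeR. Without the hair-rich libraries the median was -0.33, with 35 lower and 5 higher, and 2 were lower at that p (all genes, either direction, 1981 of 17304). Genes of dendritic and Langerhans cells, of T and NK cells and of alternative macrophage activation had medians of 0.09, 0.12 and 0.11. Nuclear genes of the respiratory chain had a median of -0.0049 over 32 members, of which 16 were higher and 16 lower.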

How the data were processed

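Poly(A) RNA libraries of 15 mouse skin samples were used, 3 per time, and the 6 of day 5 and day 7 were compared. The authors deposited 1 table of estimated counts by gene symbol for each library. The submitters' processing notes name kallisto 0.43. Not given in the sources used here are its index, the build, the strand setting and how transcripts were summed to genes. Pseudoalignment shares reads among near-identical transcripts, so close copies have uncertain values, and genes that overlap or lie antisense cannot be told apart. The estimated counts were rounded. Of 30307 rows per file, 26 named as dates were left out (0.155% to 0.179% of the counts).

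In edgeR 4.0.16 (R 4.3.3), the expression filter with a minimum count of 10 kept 17136 of 30281 named genes. TMM scaling and 1 quasi-likelihood model with robust dispersion and the 5 times as groups were fitted over all 15 libraries, and Benjamini-Hochberg adjustment was made over all genes tested. The spread was pooled over the 5 times because 3 libraries a time leave few degrees of freedom. The common biological coefficient of variation was 30.9%, well above counting error at this depth. CPM values use TMM-scaled library sizes, ± after a CPM is the SD, and ± after a log2 difference is the SE. This SE was worked back from the test, as the absolute log2 difference divided by the square root of the F statistic. Alternatives used DESeq2 1.42.0 (independent filtering off, 156 genes without an adjusted p), limma 3.58.1 voom with quality weights, other scaling, other filters and fewer libraries. No 2 libraries of a time agreed within sampling noise (lowest chi-square per gene 32.59). Same-numbered libraries of day 5 and day 7 were checked for pairing, and the fit without a block is the one reported. The scripts were tested on simulated data.

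Genes were named by a rule. It took up to 10 genes per direction of smallest p with at least a 2-fold difference, a mean of at least 5 CPM in the higher time and no overlap, the 2 genes of smallest p in each list, and a fixed set of followed genes. The 39 lists hold 994 genes, of which 985 are in the files. Some genes that this rule names, and 1 clock gene, are not reported here. The comparison, the lists and the rule were chosen with earlier results of these data known, so the counts are descriptions and no list was tested. A list of sex-linked genes was used only as a label check and is not described.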

Additional observations from a re-analysis of the deposited data

How the results depend on the processing

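The count of 1 called gene was 0 without both hair-rich libraries, 0 to 1 in fits that left out 1 of the 6 libraries (1 without day 7 replicate 1 or replicate 2, but without replicate 1 it was a different gene, Pgam1-ps2), 0 with the 6 libraries alone under either filter (792 and 766 genes at an unadjusted p under 0.05), 0 in the fit with the replicate block (1438 at that p) and 0 without the day 0 libraries (1475 at that p), an alternative chosen after seeing the data. It was 145 by DESeq2, 10 by limma voom with quality weights, and 1 with DESeq2's size factors or with no filter on low counts. Without the hair-rich libraries DESeq2 called 163 genes and voom 1. The cause of these differences was not tested. The sign turned for Cxcl2 (0.568 without day 5 replicate 1, in a range of -2.89 to 0.568) and Krtap7-1 (-0.305 without both hair-rich libraries, -4.99 without day 7 replicate 3, in a range of -4.99 to 5.51, and -1.41 with the replicate block). The deviations of same-numbered libraries of day 5 and day 7 correlated at 0.50, -0.72 and -0.81. The hair-rich libraries carry different numbers, and their deviations correlated at 0.856. This check therefore could not decide whether the replicate numbers pair the samples. Of the list medians under all alternatives, 555 moved by less than the spread and 30 by more, with the hair keratin, melanocyte, neutrophil and cytokine lists among the latter.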

Other observations

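With quality weights, limma voom gave the hair-rich libraries weights of 0.257 and 0.18 and called 10 genes. These included Banp, Arntl, Npas2, Per3, Tef and Atp6v0d2, and 3 genes chosen here for that reason, after their values were seen. Pmp2, a lipid-binding protein of peripheral myelin, stood at 1.11, 1.79 and 0.65 CPM in the day 5 libraries and at 6.16, 3.54 and 2.84 CPM in the day 7 libraries, after an average of 6.54 CPM at day 0. All 3 day 7 libraries were above day 5, and the log2 difference was 1.82 ± 0.36 (edgeR adjusted p = 0.2804). Arglu1, a splicing regulator, stood at 32.5 to 46.6 CPM in the 12 libraries of day 0 to day 5 and at 61.7, 67.4 and 55.2 CPM at day 7 (log2 difference 0.66 ± 0.12, edgeR adjusted p = 0.2804, DESeq2 adjusted p = 0.00136). Like Banp, it was higher in each day 7 library than in every other library of the series. Slc6a6, the taurine transporter, stood at 206, 180 and 227 CPM at day 5 and at 142, 113 and 122 CPM at day 7 (log2 difference -0.71 ± 0.13, edgeR adjusted p = 0.2804).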
